A study of Mus musculus with 2 samples.

Results

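The cells described here were liver macrophages that carried Clec4f RNA, the transcript of a lectin of resident Kupffer cells, together with RNA of the receptors Cx3cr1, Ccr3 and Gfra2. A barcode was a member when it had at least 500 UMIs (unique molecular identifiers, each 1 counted transcript), at least 200 genes, at most 20% mitochondrial UMIs, at least 1% of its UMIs from C1qa, C1qb and C1qc, at least 3000 UMIs in all, at least 0.05% from Clec4f, under 5 UMIs of the proliferation genes Mki67 and Top2a, and at least 3 UMIs of Cx3cr1, Ccr3 and Gfra2 together. The rule found 606 members among 6440 barcodes, with 32 of 1366 in the GS-KO library and 574 of 5074 in the control library. The 228 non-dividing Clec4f macrophages that missed only the last criterion, 13 in the GS-KO library and 215 in the control library, served for comparison and are called the other Clec4f macrophages. Because UMIs of Cx3cr1, Ccr3 and Gfra2 chose the members, every difference between members and the other Clec4f macrophages is a description of the chosen cells and has no test.

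Single-cell RNA was measured in the liver of 1 GS-KO and 1 control mouse, both tumour-bearing and both carrying floxed Glul, the gene of glutamine synthetase (GS). The GS-KO mouse received AAV8-Cre and the control mouse AAV8-GFP, and both livers were taken 7 weeks after the virus. AAV8 delivers genes mainly to hepatocytes, and the labels do not say in which cells Cre acted. Cells left in the supernatant after collagenase perfusion were enriched with beads against F4/80, a macrophage surface protein, cleared of dead cells and counted by droplet 3′ sequencing. Each group was a single mouse, so group differences have no test, and every interval given is a 95% interval that covers counting error only.

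Kupffer cells are the resident macrophages of the liver sinusoids, where they take up particles, dying cells and iron-rich red cell debris. CX3CR1 is the receptor of the chemokine fractalkine and is best known from monocytes, microglia and several tissue macrophages. CCR3 is the eotaxin receptor, best known from eosinophils, and GFRA2 binds the growth factor neurturin and signals with the tyrosine kinase RET. SPIC is a transcription factor of macrophages that recycle iron from haem, and VCAM1 is an adhesion molecule.

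The GS-KO library held 8805330 UMIs and the control library 64770011 UMIs, and 662 GS-KO and 3275 control barcodes passed the filters on UMIs, genes and mitochondrial share. The labels state that at least 7500 cells were sequenced at 20000 reads per cell, against these 1366 GS-KO and 5074 control barcodes. Members had a median of 22111 UMIs in the GS-KO library and 19135 UMIs in the control library. The other Clec4f macrophages had a median of 12318 UMIs in the GS-KO library, lower than the members, and 18530 UMIs in the control library, close to them. The median mitochondrial share of members was 2.28% in GS-KO and 3.16% in control. The libraries shared 1 barcode, which was not among the members.

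Members made up a similar share of the Clec4f macrophages in both libraries but not of all cells. They were 32 of 45 non-dividing Clec4f macrophages in the GS-KO library, or 71.1% (exact binomial interval 55.7 to 83.6%), and 574 of 789 in the control library, or 72.8% (69.5 to 75.8%). Of all cells that passed the filters, members were 4.83% (3.33 to 6.76%) in the GS-KO library and 17.5% (16.2 to 18.9%) in the control library. F4/80 enrichment sets these last shares along with the tissue. When every cell was thinned at random to 3000 UMIs, 10 of 45 GS-KO cells, or 22.2%, and 215 of 789 control cells, or 27.2%, still reached 3 UMIs of the rule genes.

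Ccr3 carried most of the RNA that defined the members. It supplied 63.2% of the UMIs of the 3 rule genes in GS-KO members and 63.1% in control members, against 32.6% and 30.2% for Cx3cr1 in the same order of libraries and 4.25% and 6.73% for Gfra2. A Ccr3 UMI was found in 93.8% of GS-KO members and 96.9% of control members. Cx3cr1 was found in 56.3% of GS-KO and 57.8% of control members, and 14 of 32 GS-KO and 242 of 574 control members had no Cx3cr1 UMI at all. Gfra2 was found in 34.4% of GS-KO and 42.9% of control members. Without Ccr3, 17 GS-KO and 295 control members would have missed the floor, whereas without Gfra2 only 2 GS-KO and 11 control members would have. All 3 genes were seen together in 6 GS-KO and 154 control members, so the group named for 3 receptors was in most cells a group of Ccr3-positive Clec4f macrophages.

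**Figure D1:**
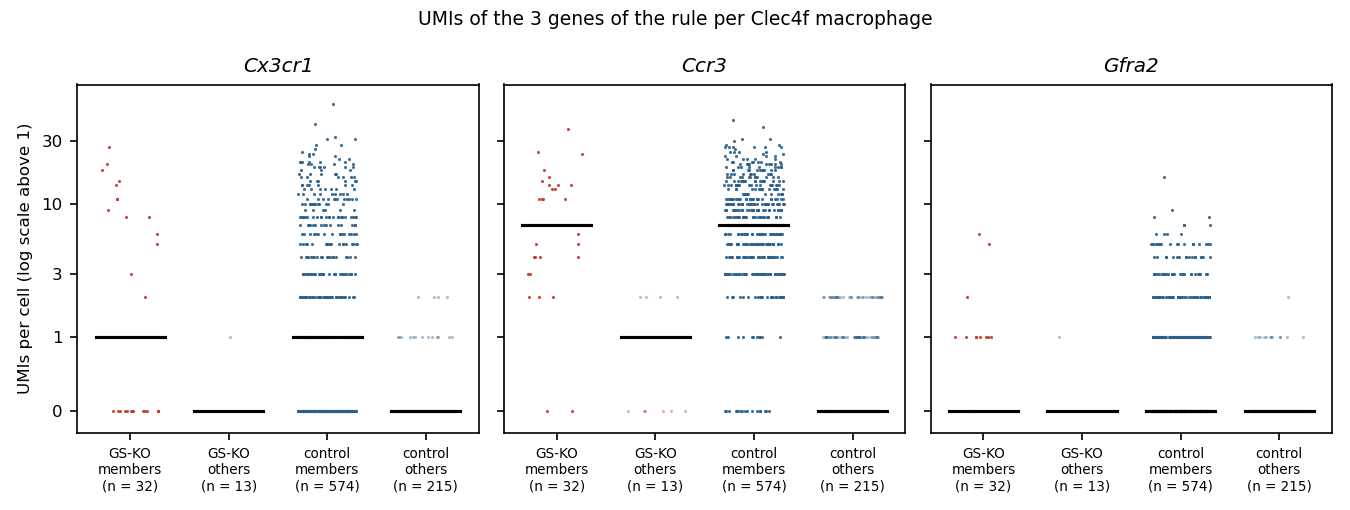
UMIs of Cx3cr1, Ccr3 and Gfra2 per cell (y axis, logarithmic above 1) in GS-KO members, GS-KO other Clec4f macrophages, control members and control other Clec4f macrophages; each point is 1 cell and the bar is the median. The median of Ccr3 is 7 UMIs in members of both libraries, that of Cx3cr1 is 1 UMI and that of Gfra2 is 0.

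The 3 genes differed in how they were spread over the cells. Ccr3 had a median of 7 UMIs per member in both libraries and a highest value of 37 UMIs in GS-KO and 43 UMIs in control. Cx3cr1 had a median of 1 UMI in both and reached 27 UMIs in GS-KO and 57 UMIs in control, with at least 10 UMIs in 7 GS-KO and 99 control members. Cx3cr1 was thus absent from over 4 in 10 members and abundant in a minority. Gfra2 reached 6 UMIs in GS-KO and 16 UMIs in control. Summed over members and scaled to counts per 1000000 UMIs (CPM), Ccr3 stood at 468 CPM in GS-KO and 451 CPM in control, Cx3cr1 at 241 CPM and 216 CPM in those libraries, and Gfra2 at 31.5 CPM and 48.1 CPM. The 6 GS-KO cells with exactly 3 UMIs, just inside the floor, had 10 UMIs of Ccr3 and 5 of Cx3cr1 in all, and the 5 GS-KO cells with 2 UMIs, just outside it, had 8 and 1. In the control library the 42 cells just inside had 102 UMIs of Ccr3 and 17 of Cx3cr1, and the 49 cells just outside had 79 and 11.

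The rule sets the members' detection of these genes, and B cells, which should lack the receptors, served as a gauge of background RNA. After thinning to 3000 UMIs, Ccr3 was detected in 62.5% of GS-KO and 71.1% of control members, against 0% of 105 GS-KO and 1.79% of 391 control B cells. Cx3cr1 was detected in 40.6% of GS-KO and 35.5% of control members, against 0.952% of GS-KO and 1.53% of control B cells. Gfra2 was detected in 9.38% of GS-KO and 13.2% of control members and in no B cell of either library. The exact binomial upper limit for a count of 0 is 3.45% of the GS-KO and 0.939% of the control B cells. The B cells had medians of 3950 UMIs in GS-KO and 3838 UMIs in control before thinning. They were chosen by Cd79a and Cd79b, by at least 3000 UMIs and by under 0.1% C1q UMIs. The C1q limit left out B cell droplets with more macrophage RNA, so these shares may understate the background. The receptors were not limited to members: macrophages with at least 1% C1q UMIs but less Clec4f than the rule asks had 555 CPM of Cx3cr1 in 23 GS-KO cells and 445 CPM in 305 control cells. In those Clec4f-low cells Ccr3 stood at 140 CPM in GS-KO and 393 CPM in control.

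Leaving each gene out of the rule in turn gave a level that had not chosen the cells. Control cells chosen by Cx3cr1 and Gfra2 alone had 512 CPM of Ccr3, against 186 CPM in cells with none of those 2 genes, a ratio of 2.76 (2.58 to 2.95). Control cells chosen by Ccr3 and Gfra2 had 205 CPM of Cx3cr1, against 77.5 CPM in cells with neither, a ratio of 2.64 (2.28 to 3.08). Control cells chosen by Cx3cr1 and Ccr3 had 47.3 CPM of Gfra2, against 3.85 CPM in cells with neither, a ratio of 12.3 (6.19 to 28.6). In the GS-KO library the ratio was 2.31 (1.79 to 2.99) for Ccr3, with 587 CPM and 254 CPM, and 4.53 (1.52 to 22.2) for Cx3cr1, with 245 CPM and 54.1 CPM. Gfra2 had 18 UMIs in 30 chosen GS-KO cells and 0 UMIs in the 5 cells with neither gene. The chosen GS-KO cells were also deeper, with a median of 23292 UMIs against 7803 UMIs when Cx3cr1 was left out, and the part of depth in these ratios was not tested.

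Kupffer cell genes that the rule did not use were abundant in the members. Vsig4, a complement receptor, stood at 2390 CPM in GS-KO members and 2142 CPM in control members, Cd5l at 3856 CPM and 4029 CPM in those libraries, and Timd4, a receptor for dying cells, at 415 CPM and 360 CPM. Summed over cells, Spic and Vcam1, which the rule did not use, were higher in members than in the other Clec4f macrophages of each library. Spic stood at 261 CPM in members and 75.7 CPM in the others of the GS-KO library, a ratio of 3.44, and at 217 CPM in members and 115 CPM in the others of the control library, a ratio of 1.89. Vcam1 stood at 1413 CPM and 801 CPM in the GS-KO sets, a ratio of 1.76, and at 762 CPM and 589 CPM in the control sets, a ratio of 1.29. In the Clec4f-low C1q macrophages Spic stood at 131 CPM in GS-KO and 279 CPM in control, and Vcam1 at 1307 CPM and 1094 CPM. In the control library both were thus higher in those cells than in the members. Eosinophil genes did not come with Ccr3: Prg2, Epx, Il5ra, Ear6 and Prg3 had 0 UMIs in the members of both libraries, and Siglecf stood at 3.00 CPM in GS-KO and 5.29 CPM in control members. The summed level of the 10 eosinophil genes was 25.5 CPM in GS-KO and 13.3 CPM in control members, below the 82.0 CPM and 27.7 CPM of the other Clec4f macrophages in those libraries. Gfra2 came without its partners, since Ret, Ncam1 and Gdnf had 0 UMIs in members of both libraries and Nrtn, the gene of neurturin, had 0 UMIs in GS-KO and 3 UMIs in control members.

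With all UMIs used, more genes were called higher than lower in control members against the other Clec4f macrophages. Of 9704 genes with at least 50 UMIs, 306 were at least 2-fold higher in members, or 3.15%, and 120 at least 2-fold lower, or 1.24%. With cells thinned to 3000 UMIs the 306 became 37, and without Ccr3 in the rule 74, while the 120 stayed within 1.5-fold. The rule used this contrast, so nothing is read from these counts. In the GS-KO library, with 32 members and 13 others, 193 of 2217 genes were at least 2-fold higher, or 8.71%, and 24 at least 2-fold lower, or 1.08%. Over all genes the median log2 ratio was 0.20 for GS-KO cells and 0.14 for control cells.

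The genes higher in control members were led by a chemokine and by lectins and receptors of the cell surface. Cxcl13, which attracts B cells, stood at 78.0 CPM in members and 5.39 CPM in the others, a ratio of 14.5 (9.41 to 23.5), but its log2 ratio was −0.78 when Ccr3 was left out of the rule. The lectins Cd209g and Cd209f stood at 32.2 CPM and 111 CPM in members, against 2.57 CPM and 15.1 CPM in the others. Adgre4, an adhesion receptor related to F4/80, had 123 CPM in members and 23.6 CPM in the others, a ratio of 5.22 (4.23 to 6.52). Cd163, the scavenger receptor for haemoglobin bound to haptoglobin, had 125 CPM in members and 30.3 CPM in the others, a ratio of 4.12 (3.41 to 5.01). Art2b, an ADP-ribosyltransferase, Plac8, Clec2g, Etv1, a transcription factor, BC035044, R74862 and Adgrl3 completed the 12, with ratios between 4.44 for BC035044 and 19.9 for Clec2g. In the GS-KO library 11 of these 12 had a UMI in either set, 7 lay in the same direction and none had an interval above 1. Cd209f, Plac8, Clec2g and Cd163 lay the other way there, Cd163 with 108 CPM in members and 177 CPM in the others, and Cd209f with 5 UMIs in members and 14 in the others, all 14 in 1 cell.

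The genes named as lower in control members included several of lipid-laden macrophages. Gpnmb, a transmembrane glycoprotein of lipid-laden macrophages, stood at 3.00 CPM in members and 31.5 CPM in the others of the GS-KO library, and at 30.5 CPM in members and 222 CPM in the others of the control library. Mmp12, the macrophage elastase, stood at 232 CPM in members and 2195 CPM in the others of the GS-KO library, and at 358 CPM in members and 1384 CPM in the others of the control library. Fabp5, a fatty acid binding protein, had 268 CPM in members and 397 CPM in the others of the GS-KO library, and 254 CPM and 1197 CPM in those of the control library. The remaining lower genes were Atp6v0d2, a proton pump subunit, Fam20c, a kinase of secreted proteins, Ccl12, Clec4d, Slc6a8, a creatine transporter, Gm34425, Shisa9, Retnla and Saa3. Retnla and Saa3 rested on 1 cell of the control others, which held 100% of their UMIs there, and 75.0% of the Ccl12 UMIs lay in 1 cell. Of 9 measured inflammatory genes, 3 were at least 1.5-fold higher and 2 lower in GS-KO members than in the other GS-KO cells. Their median log2 ratio was 0.49, and 2 of the 9 had 0 UMIs in 1 of the sets. In control members 3 of 12 were higher and 6 lower, with a median of −0.37. Of all genes, 29.5% were as much higher and 8.34% as much lower in GS-KO members, and 13.1% and 5.32% in control members. The GS-KO count of higher genes was thus near the share of all genes. Of the 10 lower genes with a UMI in the GS-KO library, 8 lay in the same direction and 3, Gpnmb, Fabp5 and Mmp12, had an interval below 1.

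**Figure D2:**
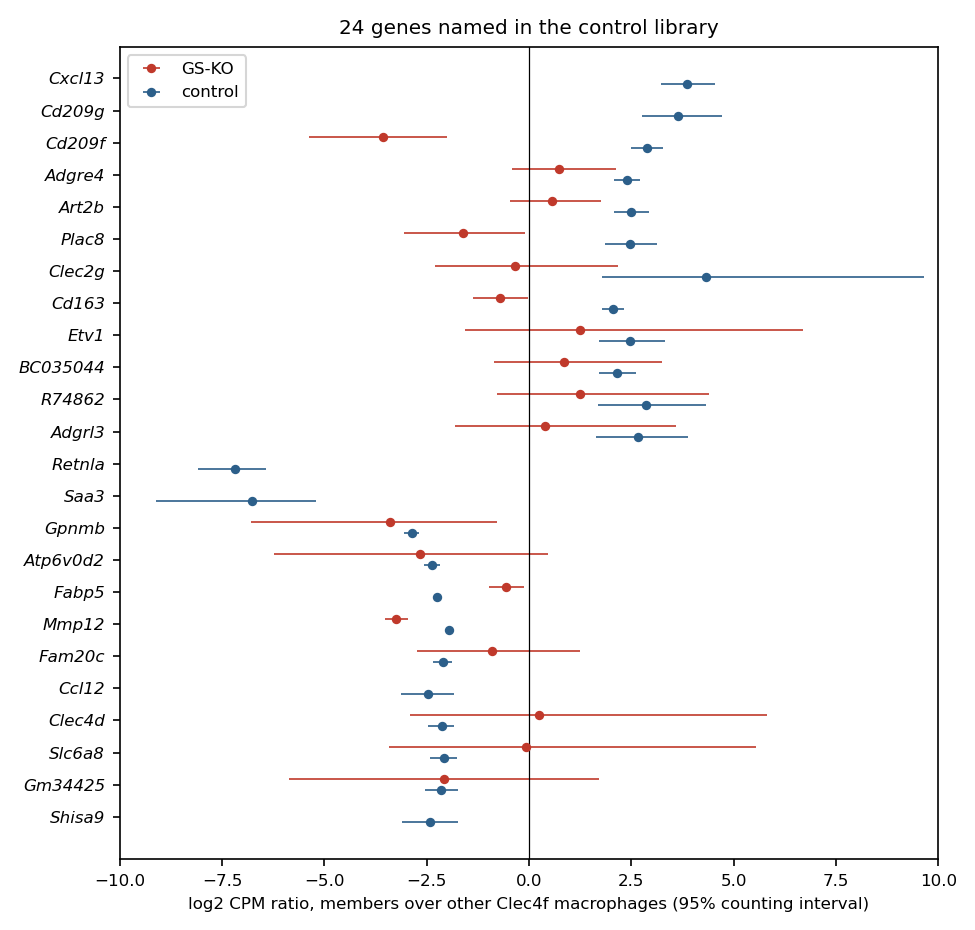
Log2 ratio of CPM in members over other Clec4f macrophages (x axis) for the 12 genes named as higher and the 12 named as lower in the control library (y axis), with GS-KO in red above control in blue and bars for the 95% counting interval; genes with 0 UMIs in a set have no point for that library. The control ratios run from 4.12 for Cd163 to 19.9 for Clec2g among higher genes, and the GS-KO points of Cd209f, Plac8, Clec2g and Cd163 lie on the other side of 0.

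Most lipid-associated macrophage genes were lower in control members. Of 19 measured lipid-associated macrophage genes, 15 were at least 1.5-fold lower in control members and 1 higher, where 5.32% of all 11098 genes were as much lower and 13.1% as much higher, and the list's median log2 ratio was −1.30. Trem2, a lipid receptor, stood at 340 CPM in members and 662 CPM in the others of the GS-KO library and at 356 CPM and 1028 CPM in those of the control library. In control cells just inside and just outside the floor, Trem2 stood at 683 CPM and 896 CPM, but Mmp12 at 1336 CPM and 1118 CPM. In GS-KO cells at the floor they stood at 367 CPM and 704 CPM, and at 278 CPM and 1453 CPM. Cd63, a tetraspanin of late endosomes, had 405 CPM and 889 CPM in the GS-KO sets and 350 CPM and 1086 CPM in the control sets. Spp1 was the 1 higher gene, and 89.6% of its UMIs in control members lay in 1 cell. In the GS-KO library 5 of 14 lipid-associated genes were at least 1.5-fold lower and 1 higher, where 8.34% of 4605 genes were as much lower and 29.5% as much higher, with a median of −0.57. Chemokine ligands were lower in 9 and higher in 3 of 17 control genes, the higher ones being Cxcl13, Ccl24 and Ccl2, with a median of −0.66. In GS-KO cells 4 of 11 were higher and 4 lower, with a median of 0.25.

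Genes of long-resident Kupffer cells were higher in control members than in the other control cells. Of 9 such genes, 6 were at least 1.5-fold higher in the control library and none lower, with a median of 1.35: Timd4, Marco, Cd163, Cd209f, Cd209g and Cd209b. Of all genes 13.1% were as much higher and 5.32% as much lower in control members, and 29.5% and 8.34% in GS-KO members. Marco, a scavenger receptor, stood at 159 CPM in control members and 62.3 CPM in the other control cells, and Timd4 at 360 CPM and 226 CPM. In the GS-KO library none of 6 measured genes was as much higher and 1, Cd163, was lower, with a median of −0.12. The control median was 0.45 with the same cells thinned to 3000 UMIs, 0.58 as a mean over cells and 0.07 when Ccr3 was left out of the rule, and the GS-KO set held only 13 other cells. Of 23 Kupffer identity genes beyond Clec4f, 9 were higher and 2 lower in control members, the lower ones being Cd207, a lectin, and Fabp7, a fatty acid binding protein. Among GS-KO cells 7 were higher, a share near that of all genes, and 4 lower, with a median of 0.00. Interferon response genes were higher in 9 of 24 control genes and lower in none, with a median of 0.53, and in GS-KO higher in 3 and lower in 8 of 20, with a median of −0.11.

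Hmox1 and Fcna were higher in members of both libraries, while the haem and iron list as a whole was near the background. Of 18 measured genes of that list, 4 were at least 1.5-fold higher and 2 lower in control members, with a median of 0.06, where 13.1% of all genes were as much higher and 5.32% as much lower. In GS-KO cells 2 of 13 were higher and 1 lower, with a median of 0.20, where 29.5% were as much higher and 8.34% as much lower. Hmox1, which breaks down haem, stood at 2074 CPM in members and 814 CPM in the others of the GS-KO library, a ratio of 2.55, and at 1599 CPM and 897 CPM in those of the control library, a ratio of 1.78. Slc40a1, the iron exporter ferroportin, had ratios of 1.49 in GS-KO and 1.27 in control. Fcna, the gene of ficolin A, a lectin that starts complement, had a per-cell median of 2278 CPM in members and 1563 CPM in the others of the GS-KO library, and 1997 CPM and 463 CPM in those of the control library. Just inside and just outside the floor, summed Fcna was close, at 1877 CPM and 1970 CPM in GS-KO and 1219 CPM and 1249 CPM in control. Ccl24, which encodes eotaxin-2, a ligand of CCR3, had per-cell medians of 375 CPM in members and 205 CPM in the others of the GS-KO library, and of 369 CPM and 44.0 CPM in those of the control library. Cells of both sets ranged widely, from 304 to 12237 CPM of Fcna in GS-KO members and from 0 to 11731 CPM in control members. The other Clec4f macrophages ran from 210 to 19712 CPM in GS-KO and from 0 to 35604 CPM in control. The highest Fcna cell of each library was thus not a member. Members of both libraries thus held RNA of Ccr3 together with RNA of a CCR3 ligand. Ccl24 was not particular to them. Just inside and just outside the floor, summed Ccl24 stood at 322 and 308 CPM in GS-KO and at 213 and 221 CPM in control. In the GS-KO library it stood at 659 CPM in members and 676 CPM in the Clec4f-low C1q macrophages.

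Fcna and Trem2 ran in opposite directions along the amount of receptor RNA when depth was held equal. Among control Clec4f macrophages thinned to 3000 UMIs, the 278 cells with 0, 188 with 1, 108 with 2 and 215 with 3 or more UMIs of the rule genes had 902, 2369, 2843 and 3488 CPM of Fcna in that order. Trem2 stood at 806, 358, 225 and 220 CPM and Mmp12 at 1032, 415, 55.6 and 66.7 CPM over the same 4 bins. Ccl24 stood at 194, 433, 710 and 647 CPM and Spic at 109, 183, 225 and 309 CPM. The GS-KO bins held 19, 8, 8 and 10 cells, and Fcna there stood at 1526, 5792, 3208 and 4333 CPM, lowest in the cells with no UMI. Trem2 in GS-KO stood at 491, 292, 500 and 66.7 CPM, with no steady order. Ccl24 there stood at 772, 542, 333 and 1300 CPM and Spic at 158, 208, 41.7 and 267 CPM, also with no steady order.

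**Figure D3:**
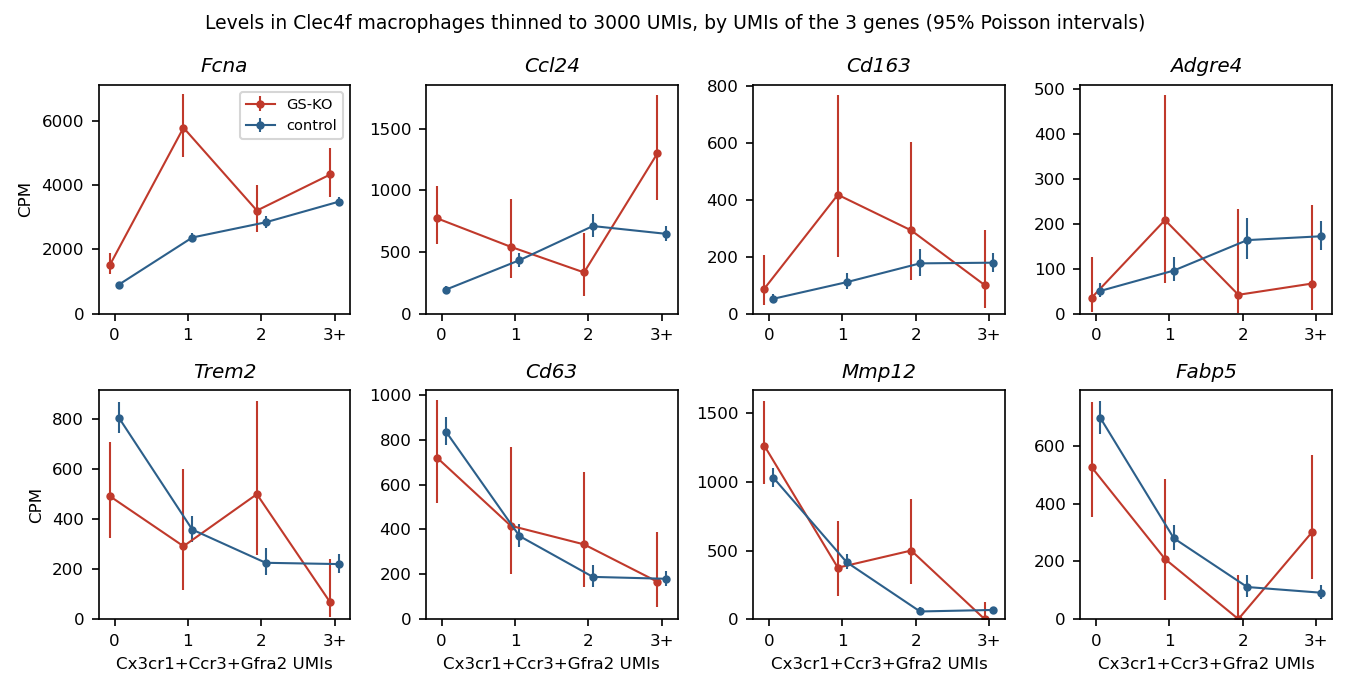
CPM (y axes) of 8 genes in Clec4f macrophages thinned to 3000 UMIs, by UMIs of Cx3cr1, Ccr3 and Gfra2 left after thinning (x axes), in GS-KO (red) and control (blue); points are summed levels and bars 95% Poisson intervals. In control cells Fcna stands at 902 CPM with 0 UMIs and 3488 CPM with 3 or more, and Trem2 at 806 and 220 CPM, while the GS-KO bins of 8 to 19 cells have wide intervals.

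The stretches before the starts of Ccr3, Fcna and Trem2 are shown because Fcna was higher and Trem2 lower in control cells with more Ccr3. They run from 250 bases before to 50 bases after the annotated start, 5′ to 3′ on the gene's strand, from RefSeq on GRCm38.p6, with capitals for GAGGAA, the core bound by ETS factors such as SPIC and PU.1, and for TGANTCA, the AP-1 motif, on either strand. Ccr3 lies at chr9:124021721-124022020 on the plus strand, Fcna at chr2:25627925-25628224 on the minus strand and Trem2 at chr17:48346151-48346450 on the plus strand.
Ccr3: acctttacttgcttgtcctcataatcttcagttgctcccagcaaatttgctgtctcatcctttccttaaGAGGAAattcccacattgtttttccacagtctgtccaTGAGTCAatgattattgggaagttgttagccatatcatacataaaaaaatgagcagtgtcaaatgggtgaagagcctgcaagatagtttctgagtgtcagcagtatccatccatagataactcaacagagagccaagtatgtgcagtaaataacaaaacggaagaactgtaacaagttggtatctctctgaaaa
Fcna: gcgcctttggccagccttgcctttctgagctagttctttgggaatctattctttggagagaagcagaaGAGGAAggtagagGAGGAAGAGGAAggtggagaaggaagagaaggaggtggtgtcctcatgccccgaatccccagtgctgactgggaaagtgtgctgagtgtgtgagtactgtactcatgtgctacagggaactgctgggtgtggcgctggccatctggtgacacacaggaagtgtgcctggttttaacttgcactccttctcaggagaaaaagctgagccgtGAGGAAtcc
Trem2: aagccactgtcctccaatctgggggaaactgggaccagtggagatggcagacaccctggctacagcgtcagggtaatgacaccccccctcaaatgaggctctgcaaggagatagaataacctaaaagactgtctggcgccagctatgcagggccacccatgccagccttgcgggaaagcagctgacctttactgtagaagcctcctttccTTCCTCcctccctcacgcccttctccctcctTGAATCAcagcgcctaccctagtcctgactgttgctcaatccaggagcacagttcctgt
GAGGAA occurred once before Ccr3, starting at −181 from the gene start, 4 times at Fcna, at −182, −169, −163 and 42, and once on the minus strand before Trem2, at −40. TGANTCA occurred at −144 before Ccr3 and at −9 before Trem2. The same stretches of Cx3cr1 and Spic were also searched and held neither motif. Of 32851 promoters of the same length, 28.3% held GAGGAA and 7.81% TGANTCA, on either strand, and a match describes letters and not a bound site. In the GENCODE M21 annotation Ccr3 spans chr9:124021972-124031689 and Cx3cr1 chr9:119901616-120069879, Gfra2 chr14:70890120-70979838, Spic chr10:88674772-88685015 and Vcam1 chr3:116109949-116129688.

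Within the control members, Ccr3 also ran with Fcna and against Trem2. Over single control members (n = 574), Pearson's r between log levels was 0.51 for Ccr3 with Fcna, −0.53 with Trem2 and −0.52 with Cd63, and over GS-KO members (n = 32) it was 0.09, −0.13 and −0.27 for those pairs, closer to 0 than in control. Ccr3 with Adgre4 gave 0.44 in GS-KO and 0.42 in control, and Ccr3 with the mannose receptor Mrc1 0.50 and 0.40. Ccr3 with Cx3cr1 gave 0.16 in GS-KO and 0.10 in control. Spic with Vcam1 gave 0.39 in GS-KO and 0.45 in control. Spic with Hmox1 gave 0.13 in GS-KO and 0.51 in control. These pairs were chosen after their values were seen, the cells of a library share 1 preparation, and Ccr3 also varied with total UMIs, with r of 0.35 in GS-KO and −0.35 in control.

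Control members with at least 3 Cx3cr1 UMIs (227 cells) and with none (242 cells) differed in few genes. Of 8856 genes, 35 were at least 2-fold higher in the Cx3cr1-rich cells, or 0.395%, and 34 at least 2-fold lower, or 0.384%. Plac8 stood at 57.0 CPM in Cx3cr1-rich cells and 18.1 CPM in cells with none, Cd209f at 160 CPM and 58.5 CPM, and Ltc4s, the leukotriene C4 synthase gene, at 81.5 CPM and 35.7 CPM. Marco stood at 99.4 CPM in Cx3cr1-rich cells and 195 CPM in cells with none, Mmp12 at 221 CPM and 489 CPM, and Il1rn, the interleukin-1 receptor antagonist gene, at 22.8 CPM and 57.5 CPM. Ccr3 stood at 485 CPM and 403 CPM, but cells with no Cx3cr1 could be members only through Ccr3 and Gfra2, so the rule sets that level. Haemoglobin RNA was also higher in the Cx3cr1-rich cells, but 88.7% of it in control members came from 1 cell. These genes were picked after their values were seen.

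The targeted gene was level between the libraries in these cells. Glul stood at 279 CPM in GS-KO members and 268 CPM in control members, a ratio of 1.04 (0.89 to 1.21). Counting near the 3′ end may fall outside the deleted part, and Cre was delivered with a vector that favours hepatocytes, so this level does not check the labels. Of 13 measured glutamine metabolism genes, 2 were at least 1.5-fold higher and 1 lower in GS-KO members, with a median log2 ratio of 0.06. Of 18 immunosuppressive and alternative activation genes, 1 was higher and 4 lower, with a median of −0.03. Identity genes were also level: of 24 Kupffer identity genes, 1, Vcam1, was at least 1.5-fold higher and 2, Nr1h3 and Slc16a9, were lower, with a median of −0.02. These counts stand beside 11.0% of 10764 genes that were as much higher in GS-KO members and 21.3% as much lower. Vcam1, at 1413 CPM in GS-KO and 762 CPM in control members, had a ratio of 1.86 (1.73 to 1.99), and its lowest, median and highest cells stood at 113, 1174 and 4614 CPM in GS-KO and at 0, 584 and 4089 CPM in control.

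Interferon response and MHC class I genes were lower in GS-KO members. Of 9325 genes with at least 50 UMIs, 239 were at least 2-fold higher in GS-KO members, or 2.56%, and 799 at least 2-fold lower, or 8.57%. Of 24 interferon response genes, 16 were at least 1.5-fold lower and none higher, where 21.3% of all genes were as much lower and 11.0% as much higher, and the list's median log2 ratio was −0.84 against −0.08 over all genes. Iigp1, an interferon-induced GTPase, had a UMI in 5 of 32 GS-KO and 327 of 574 control members, at 15.0 CPM and 88.5 CPM. Isg15 stood at 42.0 CPM in GS-KO and 147 CPM in control, and Irf7 at 172 CPM and 283 CPM. The cells of the libraries overlapped in Iigp1, with a highest value of 95.8 CPM in GS-KO and 1055 CPM in control members.

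MHC class I genes present peptides to CD8 T cells. Of 14 such genes, 9 were at least 1.5-fold lower in GS-KO members and none higher, with a median of −0.78. H2-K1 stood at 1057 CPM in GS-KO and 2075 CPM in control members, with per-cell medians of 932 CPM and 1921 CPM. H2-Q7 stood at 22.5 CPM in GS-KO and 91.7 CPM in control, and Psmb8, an immunoproteasome subunit, at 292 CPM and 507 CPM. B2m stood at 2173 CPM in GS-KO and 3134 CPM in control. H2 genes are near-identical copies, so reads may be split among them. In the other Clec4f macrophages, 6 of the 14 were at least 1.5-fold lower in GS-KO and none higher, with a median of −0.44. Of all genes there, 35.1% were as much lower. H2-K1 had per-cell medians of 1214 CPM in the GS-KO and 2033 CPM in the control others. In GS-KO members MHC class II genes were lower in 2 of 10, with a median of −0.39. That share was near the 21.3% of all genes that were as much lower in members. Hepatocyte RNA was lower as well, in 12 of 14 measured genes, with summed levels of 1051 CPM in GS-KO and 1334 CPM in control members and with Serpina1a, Cyp2e1 and Cps1 at 0 UMIs in GS-KO. B cell genes were lower in 6 of 6 measured, at 19.5 CPM summed in GS-KO and 51.5 CPM in control, with Ms4a1, Ebf1 and Pax5 at 0 UMIs in GS-KO. The part of RNA from such other cells in the lower genes was not tested.

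Stress response genes were higher in GS-KO members. Of 21 immediate early and heat shock genes, 15 were at least 1.5-fold higher and none lower, with a median log2 ratio of 0.93, where 11.0% of all genes were as much higher. Hspa1b and Hspa1a, which encode heat shock proteins, stood at 583 CPM and 469 CPM in GS-KO members, against 74.7 CPM and 89.5 CPM in control members. Hspa1b had a UMI in 29 of 32 GS-KO and 261 of 574 control members, with per-cell medians of 242 CPM and 0 CPM. The gene Fos, part of the AP-1 factor, stood at 1178 CPM in GS-KO and 373 CPM in control, a ratio of 3.16 (2.92 to 3.41), and Egr1 at 219 CPM and 82.0 CPM. Of 8 measured glucocorticoid-induced genes 5 were higher and none lower, with a median of 1.25: Fkbp5 stood at 108 CPM in GS-KO and 17.6 CPM in control, Ddit4 at 80.9 CPM and 8.33 CPM, and Klf9 at 52.5 CPM and 18.2 CPM. When cells were thinned before the rule was applied, leaving 10 GS-KO members, the median of the immediate early and heat shock list was 0.31 and that of the glucocorticoid list 0.24. In the other Clec4f macrophages, GS-KO over control, those medians were 0.12 and 0.22 with all UMIs used. There 6 of 21 genes of the first list were at least 1.5-fold higher and none lower, and 2 of 7 of the second higher and 3 lower. Of all genes there, 14.6% were as much higher and 35.1% as much lower. Hspa1b had per-cell medians of 232 CPM in the GS-KO and 0 CPM in the control others.

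**Figure D4:**
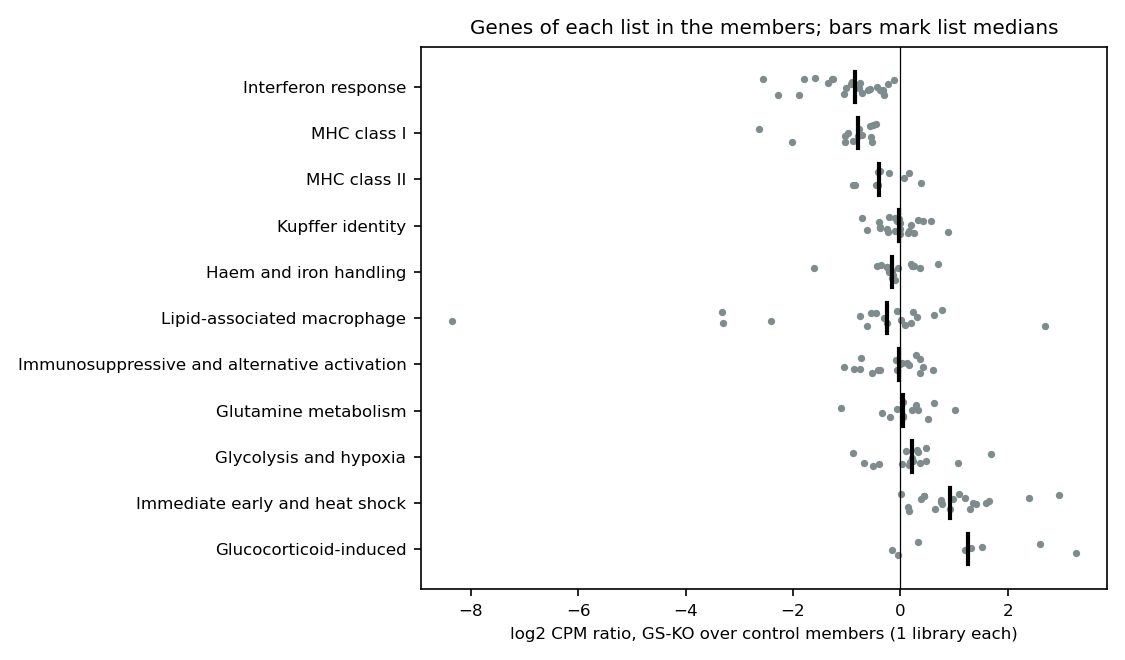
Log2 ratio of CPM in GS-KO over control members, with a prior count of 0.5 (x axis), for each gene (points) of 11 lists (y axis), with a bar at each list's median; 1 library per group. The interferon response and MHC class I medians are −0.84 and −0.78, those of the immediate early and heat shock and glucocorticoid-induced lists 0.93 and 1.25, and Kupffer identity lies at −0.02.

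Several of the highest ratios in GS-KO members rested on 1 cell. Ccl2 and Ccl7, monocyte-attracting chemokines, stood at 599 CPM and 115 CPM in GS-KO members and 40.2 CPM and 7.02 CPM in control members, but 90.0% of the GS-KO UMIs of Ccl2 and 100% of those of Ccl7 lay in 1 cell. Without that cell Ccl2 stood at 62.3 CPM in GS-KO, a ratio of 1.55 (1.09 to 2.15), and Ccl7 had no UMI in GS-KO. Col4a1, Esm1, Cldn5, Angpt2, Fabp4 and Gpihbp1, most of them endothelial genes, had 91.3 to 100% of their GS-KO UMIs in another cell. That cell held 128 UMIs of the 10 endothelial genes and was called a doublet by Scrublet. Of the 12 genes named as higher, Hspa1b, Ddit4, Fkbp5 and Hspa1a were spread over 11 or more cells.

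The genes named as lower in GS-KO members included 2 chemokines and the lectins Cd209f and Cd209g. Of all 9 long-resident Kupffer genes, only these 2 were at least 1.5-fold lower in GS-KO members and none higher, with a median of −0.21, where 21.3% of all genes were as much lower. Cd209f stood at 7.49 CPM in GS-KO members and 111 CPM in control members, and Cxcl13 at 5.99 CPM and 78.0 CPM. Cd209g had 0 UMIs in GS-KO members and 32.2 CPM in control members, which at a floor of 3 UMIs, or 4.50 CPM, is at least 7.16-fold lower. Ccl5, a T cell chemokine, stood at 4.50 CPM in GS-KO and 73.7 CPM in control, and Cfb, complement factor B, at 13.5 CPM and 88.1 CPM. Ly6a stood at 7.49 CPM in GS-KO and 79.8 CPM in control, and Pla2g2d, a secreted phospholipase, had 1 UMI in GS-KO and 323 UMIs in control. Car3 and Rbp4, both abundant in hepatocytes, had 1 UMI and 4 UMIs in GS-KO, against 457 and 635 UMIs in control. Spp1 had 0 UMIs in GS-KO members, and 89.6% of its UMIs in control members lay in 1 cell. In the other Clec4f macrophages 248 of 6535 genes, or 3.79%, were at least 2-fold higher in GS-KO and 1348, or 20.6%, as much lower. Of the 12 genes, 4 had an interval below 1 in that comparison. For Cd209g, Cxcl13 and Spp1 no direction could be given there, with 0 UMIs in GS-KO against 10, 21 and 22 UMIs in control, and Cd209f was higher in GS-KO through 14 UMIs in 1 cell. The interferon response list, which was lower in GS-KO members, had a median of 0.08 in those cells, with 2 genes at least 1.5-fold higher and 6 lower, where 14.6% of all genes were as much higher and 35.1% as much lower.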

How the data were processed

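The deposited values were raw UMI counts per gene and barcode for 2 libraries. Cell Ranger and the mm10 genome are named in the submitters' processing notes, and the matrix header carried software version 3.1.0. The labels give the chemistry as 3PrimeV2, and 1 label says snRNA, which was not settled. The members, gene lists and named genes were chosen with earlier results of these data known. UMIs were summed per cell set and library and scaled to CPM, with exact Poisson intervals for levels, conditional binomial intervals for ratios and Clopper-Pearson intervals for shares. Log2 ratios behind list medians used a prior count of 0.5 and genes with at least 20 UMIs. Genes counted as 2-fold had at least 50 UMIs. Named genes were the 12 higher and 12 lower of each contrast by the interval bound nearest 1; genes of the rule, of mitochondria, ribosomal proteins, haemoglobins and immunoglobulins, Y-linked genes, Xist and the hepatocyte list were left out. To these came Glul, the markers of the group and, from each list, genes with most UMIs or the bound farthest from 1; other names were chosen after their values were seen. Cells were thinned to 3000 UMIs without replacement (seed 1). Doublets were left in; Scrublet called 1 GS-KO and 11 control members. Ratios and intervals were tested on simulated Poisson counts from the summed control member profile. Those counts had no variation between cells, so the test covers counting error only. Results for some genes are not reported here. Python 3.11.15 was used with scanpy 1.11.5, pandas 2.3.3, scipy 1.17.1, matplotlib 3.10.9 and numpy 2.4.6.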

Additional observations from a re-analysis of the deposited data

How the results depend on the processing

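No paired analysis was possible because each group was 1 library with no replicate number. The member share was 71.1% in GS-KO and 72.8% in control. It became 53.3% in GS-KO and 62.6% in control with a floor of 5 UMIs, 48.9% and 52.5% when at least 2 of the 3 genes needed a UMI, and 22.2% and 27.2% after thinning to 3000 UMIs. In control it became 79.0% with a floor of 2 UMIs, 61.2% with a floor of 0.03% of UMIs and 76.1% with a C1q floor of 2%.

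The counts of genes higher in control members than in the others, 306, became 131 with 2 of 3 genes, 37 after thinning, 527 with a gene minimum of 20 UMIs, 480 against cells with 0 UMIs of the 3 genes and 74 without Ccr3 in the rule, and the 120 lower became 191 with a floor of 0.03% and 224 with a gene minimum of 20 UMIs. In GS-KO the 193 higher became 356, 93 and 82 with floors of 2 UMIs, 5 UMIs and 0.03%, 52 with 2 of 3 genes, 4 after thinning, 734 with a gene minimum of 20 UMIs, 407 against cells with 0 UMIs, 104 without Cx3cr1 and 80 without Ccr3. The 24 lower became 74 with a floor of 2 UMIs, 37 as a mean over cells, 119 with a gene minimum of 20 UMIs, 88 against cells with 0 UMIs, 13 without Cx3cr1 and 65 without Ccr3. Between GS-KO and control members, the 239 higher and 799 lower became 130 and 362 after thinning and 468 and 1247 with a gene minimum of 20 UMIs, and leaving out each GS-KO cell in turn gave 206 to 255 and 779 to 878. The cause of these shifts was not tested.

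Reversed log2 ratios were few. Cxcl13 in control members against the others became −0.78 without Ccr3 in the rule. The GS-KO glucocorticoid median against the others became −0.38 with 2 of 3 genes and −0.35 without Ccr3. The median of the Kupffer endothelial-type subset in GS-KO over control members became −0.30 after thinning. Of the 8 log2 ratios in GS-KO over control members that rested on 1 cell, 6 changed sign without it, and Ccl2 and Col4a1 did not. Ccl7, Esm1 and Cldn5 then had 0 UMIs in GS-KO, so the size of their log2 values rests on the prior count. The interval of the ratio held 1 for Cldn5 (0 to 2.24), Angpt2 (0.0089 to 2.09) and Fabp4 (0.27 to 1.16). Its upper end was 0.84 for Ccl7, 0.96 for Esm1 and 0.87 for Gpihbp1. With a C1q floor of 2%, Ccl7 became −5.65, Esm1 −4.48, Cldn5 −3.26, Angpt2 −4.95, Fabp4 −0.064 and Gpihbp1 −5.59. Without Scrublet doublets, Esm1 became −6.27, Cldn5 −5.12, Angpt2 −1.43, Fabp4 −0.73 and Gpihbp1 −2.67. Leaving out each GS-KO cell in turn gave −6.43 to 4.11 for Ccl7, −6.27 to 3.97 for Esm1, −5.12 to 3.90 for Cldn5, −1.43 to 3.18 for Angpt2, −0.73 to 2.77 for Fabp4 and −2.64 to 2.92 for Gpihbp1. Leaving out both cells, chosen after seeing the data, gave −6.43, −6.26, −5.12, −5.77, −0.67 and −2.58 for those genes, with 207 higher and 907 lower. Of the list medians under the alternatives, 2457 kept their value within the limits set, 88 moved and 3 reversed. Of the ratios of named genes, 1351 kept their value, 161 moved and 24 reversed. Both totals include the runs that left out 1 GS-KO cell each.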

Other observations

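Genes of non-classical monocytes were higher in 5 of 8 measured genes in control members than in the other Clec4f macrophages, with a median log2 ratio of 0.73, and in 4 of 6 in GS-KO, with 1 lower and a median of 0.82, where 13.1% of all genes in control and 29.5% in GS-KO were as much higher. Treml4, a receptor of these monocytes, stood at 180 CPM in members and 183 CPM in the others of the GS-KO library and at 214 CPM and 123 CPM in those of the control library. Cd300e stood at 120 CPM and 63.1 CPM in the GS-KO sets and 112 CPM and 63.4 CPM in the control sets. Ace and Spn had 0 UMIs in GS-KO members, and at most 1.13 CPM in control members. P2ry12 and P2ry13, purine receptors best known from microglia, stood at 36.0 CPM and 74.9 CPM in GS-KO members, against 12.6 CPM and 50.5 CPM in the other GS-KO cells, and at 36.9 CPM and 87.1 CPM in control members, against 18.0 CPM and 44.4 CPM in the other control cells. Tmem119 and Sall1, which also mark microglia, had 0 UMIs in GS-KO members and at most 0.434 CPM in control members.

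The chemoattractant receptors Fpr1 and Fpr2 stood at 102 CPM and 65.9 CPM in members and 94.6 CPM and 50.5 CPM in the others of the GS-KO library, and at 117 CPM and 67.2 CPM in members and 42.1 CPM and 26.4 CPM in the others of the control library. Ccr1, a receptor of inflammatory chemokines, stood at 37.5 CPM in GS-KO members and 5.55 CPM in control members, a ratio of 6.75 (4.07 to 10.9). Ccl6 stood at 1290 CPM in GS-KO and 703 CPM in control members, and 1 cell held 9.64% of the GS-KO UMIs of this gene.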
